A study of Mus musculus with 14 samples.

Results

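The 8 transcripts described here, *Atf4*, *Atf5*, *Ddit3*, *Ddit4*, *Trib3*, *Chac1*, *Asns* and *Sesn2*, belong to the integrated stress response and were chosen by name from the 52459 genes of the count tables. They were followed in 6 RNA-seq libraries of mouse embryonic stem cells (mESCs) treated with 5 μg/ml actinomycin D, which blocks transcription, for 0, 4 or 8 h, and in the m6A peaks called on their exons. All cells were of the E14Tg2a line. The paper describes mESC culture with LIF on gelatin and names no feeder layer. One genotype was WT, and the other carried METTL14 R255K, a CRISPR-Cas9 knock-in that replaces an arginine of the m6A methyltransferase subunit METTL14 with lysine and that was isolated from single colonies. Each genotype had 1 actinomycin D library per time point, so a difference between genotypes cannot be told apart from a difference between single cultures or clones, and no test between genotypes was possible. The peaks came from MeRIP-seq, in which fragments bound by an antibody against m6A are sequenced beside input RNA, with 2 IP and 2 input libraries per genotype and 1 deposited peak list for each. The exons of the 8 genes carried 9 of the 17693 WT peaks and 10 of the 9437 R255K peaks.

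The integrated stress response begins when kinases that sense amino acid shortage, misfolded protein in the endoplasmic reticulum (ER), haem shortage or double-stranded RNA phosphorylate eIF2α. Most translation then falls, whereas transcripts with upstream reading frames such as *Atf4* are translated more, and the transcription factor ATF4 induces genes of amino acid supply, redox balance and growth control. *Atf5* and *Ddit3*, which encodes CHOP, are further transcription factors of the pathway. *Trib3* encodes a pseudokinase that feeds back on ATF4 and CHOP, *Chac1* an enzyme that degrades glutathione, and *Asns* asparagine synthetase. *Ddit4* and *Sesn2* encode inhibitors of the growth regulator mTORC1 and are also p53 targets. m6A, which METTL3 and METTL14 write mainly at the sequence RRAC (R is A or G), often marks transcripts for decay.

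The sequences below show where the peaks that the results turn on lay, each as 30 bases of the gene's strand of mm10 (GRCm38) with the RRAC motif in capitals. For each peak the GGAC nearest its summit was taken. Without a GGAC within 100 bases, GAAC, AGAC and AAAC were tried in that order, and the nearest copy of the first one present was taken. The first pair are the sites whose peaks were called in WT cells only, in the coding sequence of *Atf4* and around the start codon of *Chac1*. The other 4 lay in 3′UTRs and had a peak in both genotypes.
Atf4, coding sequence, chr15:80257212-80257241, plus strand: acagctaaagtgaAGACtgagaaattggat
Chac1, 5′UTR, chr2:119351344-119351373, plus strand: gtgcccgtgccggAGACcagtctcggaggc
Chac1, 3′UTR, chr2:119353618-119353647, plus strand: gagtggtactggtGGACatcagtatgcagt
Trib3, 3′UTR, chr2:152337765-152337794, minus strand: accatgtgcctcaGGACcacaaatcaggcc
Ddit4, 3′UTR, chr10:59950422-59950451, minus strand: ggcaaggactgaaGGACtgtcccctgtgtt
Sesn2, 3′UTR, chr4:132493495-132493524, minus strand: actggactgaacaGGACcgtcgcactgact

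ATF4 and its C/EBP partners bind a composite element with the core TGATGNAA, and promoters that hold it are shown because the transcripts below differ in level before any decay is measured. In the RefSeq promoters (GRCm38.p6, 250 bases before to 50 bases after the annotated start), the letters TGATGNAA were found on either strand for 3 of the 8 genes and in 3.97% of all 32851 promoters. *Atf5* had 2 promoters in the table and neither held the motif. The match lay 193 bases before the start of *Chac1*, 23 bases before that of *Asns* and 15 bases after that of *Trib3*. In the lines below the match is in capitals and reads TTNCATCA where it is on the opposite strand.
Chac1 promoter, chr2:119351038-119351067, plus strand: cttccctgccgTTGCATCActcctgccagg
Asns promoter, chr6:7693214-7693243, minus strand: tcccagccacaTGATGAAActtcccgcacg
Trib3 promoter, chr2:152344028-152344057, minus strand: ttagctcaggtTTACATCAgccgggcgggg

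The libraries held between 13812160 and 18813640 counts. Levels are CPM (counts per 1000000 counts of the library) unless another scale is named, with 95% intervals that cover counting error only. *Mettl14*, the edited gene, had 681, 376 and 232 counts over the 3 WT libraries against 299, 280 and 209 with R255K, and the edited base itself cannot be seen in counts. The 7 mESC markers were detected in both genotypes (summed 4935 CPM in WT and 3539.9 in R255K cells at 0 h). Relative to summed counts all 7 were lower in R255K cells at 0 h, 2 of them by at least 1.5-fold (19.3% of all genes). Their log2 ratios ran from −0.17 for *Pou5f1* to −1.11 for *Esrrb*, which had 18281 WT counts against 7608. The median was −0.34, and 1.1 relative to *Gapdh*. The 7 germ layer markers summed to 35.5 and 35.7 CPM, but singly *T* had 11 WT counts against 45 with R255K, *Foxa2* 12 against 62 and *Gata4* 228 against 106. The 5 fibroblast markers summed to between 5.34 and 7.24 CPM in the WT libraries and between 27.2 and 34.3 in the R255K libraries, with 9 counts of *Col1a1* in WT cells at 0 h against 150 with R255K, 3 against 76 of *Col1a2*, 81 against 188 of *Thy1* and 0 of *Postn* in both. The part of these markers in the results was not tested, and in bulk RNA fewer cells of a type and less RNA per cell cannot be told apart. *Gapdh*, the reference gene of the study's qPCR, had 995, 242 and 2357 counts over the WT time course against 331, 787 and 1875 with R255K, and scaling to it moved the median log2 ratio of all genes at 0 h from 0.06 to 1.49. Directions are given relative to the summed counts, and many of them turn relative to *Gapdh*. Scaling to *Gapdh* shifts every log2 ratio at 0 h by the same amount.

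Before actinomycin D, *Chac1*, *Trib3*, *Ddit3*, *Atf4* and *Atf5* were lower in R255K than in WT cells by at least 1.5-fold and *Ddit4* was higher, although relative to *Gapdh* none of the 8 was lower by that fold and 4 were higher. All 8 passed the filter of a mean of 1 FPKM (counts per kilobase of exons, in CPM) at 0 h that defined the 11869 genes used for comparison. The 5 of 8 lower by 1.5-fold stood beside 19.3% of all genes, and the 1 of 8 higher beside 20.6%. The median log2 ratio was −0.79 over the 8 genes and 0.06 over all genes, with quartiles of −0.44 and 0.48, and it was 0.64 over the 8 genes relative to *Gapdh*. Per length, WT levels at 0 h ran from 193 FPKM for *Atf4* and 118 for *Asns* through 51.7 for *Sesn2*, 25.2 for *Trib3*, 19.2 for *Atf5*, 13.8 for *Chac1* and 9.97 for *Ddit4* to 3.62 for *Ddit3*. In R255K cells *Asns*, at 115 FPKM, was above *Atf4*, at 97.3, and *Ddit4*, at 17.6 FPKM, was above *Atf5*, *Trib3* and *Chac1*.

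**Figure D1:**
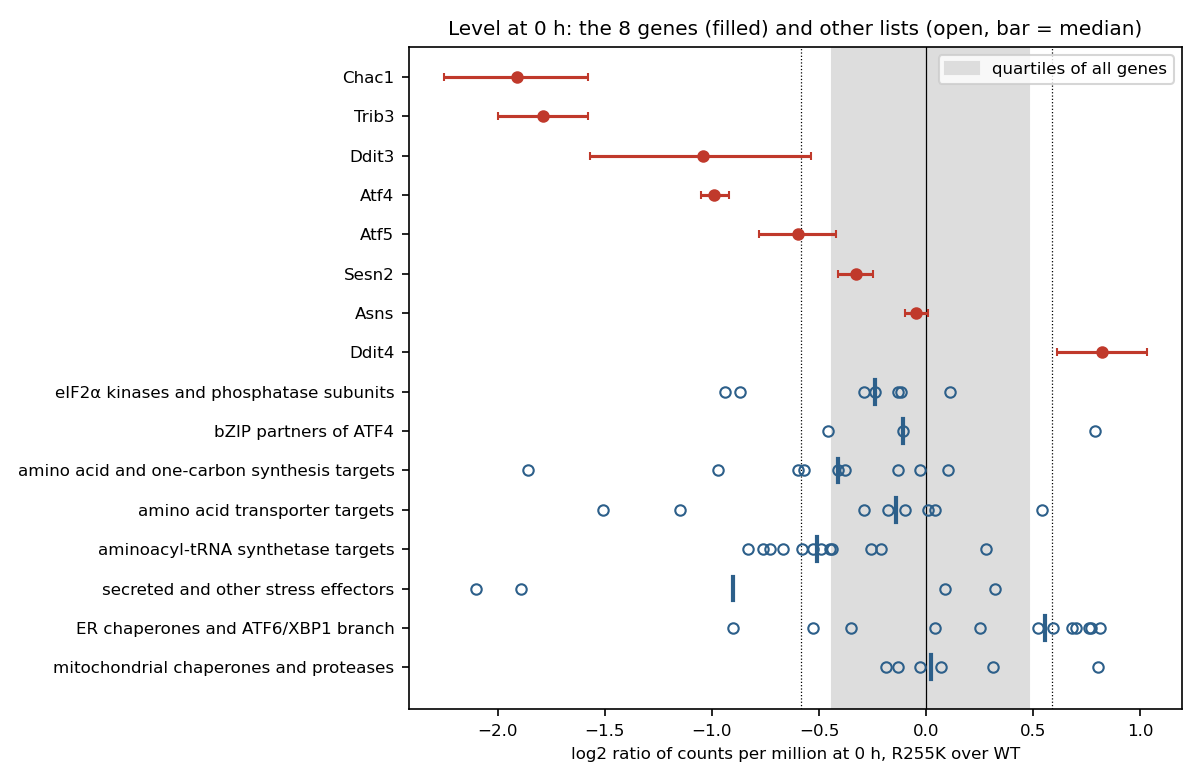
Log2 ratio of CPM at 0 h, R255K over WT, for the 8 genes (filled points, bars are 95% counting intervals) and for the other lists of the pathway (open circles are genes, vertical bars are list medians); the grey band spans the quartiles of all genes and dotted lines mark 1.5-fold. *Chac1* and *Trib3* lay farthest to the left of the 8, *Ddit4* alone lay to the right, and scaling to *Gapdh* would move every point by the same distance to the right.

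*Atf4* (chr15:80255184-80257541, plus strand), the central transcription factor, had 332 CPM (324 to 341) in WT and 168 (161 to 174) in R255K cells at 0 h. The R255K level was therefore 1.98-fold lower, and 10.0% of all genes had a lower ratio. *Atf5* (chr7:44812256-44816658, minus strand) had a WT level of 38.3 CPM at 0 h, 43.4 at 4 h and 49.0 at 8 h, against 25.3, 26.7 and 30.9 CPM with R255K. Relative to summed counts it was lower in R255K cells at each time, by 1.52-fold at 0 h, which is close to the 1.5-fold used here. *Ddit3* (chr10:127290774-127296288, plus strand), the transcript of CHOP, was the scarcest of the 8, with 108, 70 and 72 WT counts against 47, 36 and 38 with R255K. In CPM too it was lower in R255K cells at each time (4.67 against 1.94 at 4 h and 5.21 against 2.02 at 8 h), and the log2 ratio at 0 h was −1.04 (−1.57 to −0.54). Relative to *Gapdh* the log2 ratio at 0 h was 0.45 for *Atf4*, 0.83 for *Atf5* and 0.39 for *Ddit3*. At 4 h it was −1.11, −2.09 and −2.66 on that scale. The 3 directions at 0 h thus turn on whether *Gapdh* is the scale. They held with TMM factors (−1.03, −0.64 and −1.09), ribosomal protein genes (−1.14, −0.75 and −1.2) and the GC trend removed (−1.24, −0.98 and −1.2). Exons of *Atf5* overlap *Nup62* and *Il4i1* on the opposite strand by 82 bases, and those of *Ddit3* overlap *Mars* by 68 and *Gm4189* by 13 bases. As the strand of the libraries was not given in the sources used here, some reads of these 2 genes may belong to those neighbours, of which *Nup62* had 5283 and *Mars* 5634 counts in WT cells at 0 h.

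*Trib3* (chr2:152337422-152344032, minus strand) and *Chac1* (chr2:119351229-119354381, plus strand), the feedback pseudokinase and the glutathione-degrading enzyme, differed most. *Trib3* had 53.5 CPM (50.1 to 57.0) in WT and 15.5 (13.6 to 17.5) in R255K cells at 0 h, 3.46-fold lower. *Chac1* had 22.5 CPM (20.4 to 24.9) and 6.01 (4.86 to 7.35), 3.75-fold lower. Of all genes, 2.2% had a lower ratio than *Trib3* and 1.7% a lower ratio than *Chac1*. Their log2 ratios of −1.79 and −1.91 stayed below 0 under each scaling tried, and were −0.36 and −0.48 relative to *Gapdh*.

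*Asns* (chr6:7675169-7693254, minus strand) had 324 CPM in WT and 314 in R255K cells at 0 h, a log2 ratio of −0.05 (−0.10 to 0.01). Its interval included 0, unlike those of *Chac1* and *Trib3*, the other genes with the promoter motif, and relative to *Gapdh* its log2 ratio was 1.39. Ratios between genes of the same library do not depend on any single factor per library, so these genes were set against each other. *Chac1* counts per *Asns* count were 3.63-fold lower in R255K cells (2.89 to 4.56), *Trib3* per *Asns* 3.35-fold lower (2.89 to 3.87) and *Atf4* per *Asns* 1.92-fold lower (1.81 to 2.04). *Atf4* counts per *Atf5* count were 1.31-fold lower (1.14 to 1.49). These proportions restate the ratios at 0 h of the genes, and they differed between the 2 libraries by amounts that depend on the pair.

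The mTORC1 inhibitors went different ways relative to summed counts. *Sesn2* (chr4:132492032-132510501, minus strand) had 179.7 CPM (173 to 186) in WT and 143 (137 to 149) in R255K cells at 0 h, a log2 ratio of −0.33 that turned to 1.10 relative to *Gapdh*. *Ddit4* (chr10:59949669-59951834, minus strand) had 17.5, 10.2 and 6.01 CPM in WT and 30.8, 16.3 and 12.2 CPM in R255K cells. It was higher in R255K cells at each time, by 1.76-fold (1.52 to 2.04) at 0 h, although relative to *Gapdh* its log2 ratio was 2.25 at 0 h, −0.71 at 4 h and 1.79 at 8 h. *Ddit4* counts per *Atf4* count were 3.49-fold higher in R255K cells under any single factor per library, and the WT ratio was 0.287 of the R255K ratio (0.247 to 0.333). The log2 ratio of *Ddit4* fell from 0.82 to 0.49, under the 1.5-fold, when the trend of log2 ratios with GC content was removed.

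**Figure D2:**
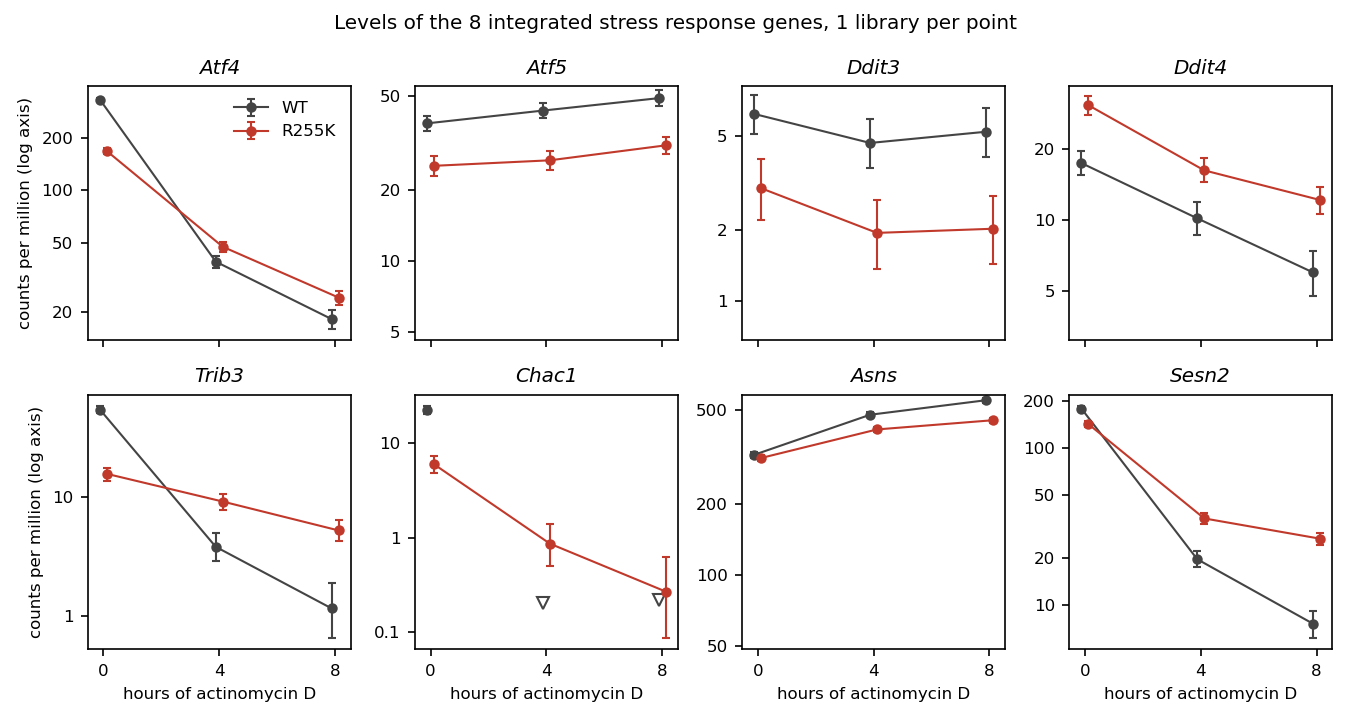
Level of each of the 8 genes in CPM (log axis, its range set for each gene) at 0, 4 and 8 h of actinomycin D in WT and R255K cells, 1 library per point; bars are 95% counting intervals and open triangles mark the level of 3 counts where none was found. On this scale the lines of *Atf4*, *Trib3* and *Sesn2* crossed between 0 and 4 h, those of *Atf5*, *Ddit3* and *Ddit4* did not, and *Asns* rose relative to the library in both genotypes. Relative to *Gapdh*, *Atf4* and *Sesn2* were instead higher in R255K cells at 0 h and lower at 4 h, and *Trib3* was lower at both times.

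After transcription was blocked, the 8 transcripts of WT cells fell into a group that was quickly lost (*Chac1*, *Trib3*, *Sesn2*, *Atf4*), *Ddit4* with slower loss, and *Ddit3*, *Atf5* and *Asns*, which kept most of their share of the library. In R255K cells *Trib3*, with 33.7% left at 8 h, was closer to *Ddit4*, with 39.5%, than to *Sesn2*, with 18.5%. Since all mRNA decays under actinomycin D, a level is relative to the rest of the library and a stable transcript can rise. In WT cells 4 of 8 had under 50% of the 0 h level left at 4 h (27.6% of all genes) and 5 of 8 at 8 h (42.6%). In R255K cells 3 of 8 were under 50% at 4 h (13.0%) and 5 of 8 at 8 h (22.0%), a number that became 8 of 8 relative to *Gapdh*.

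*Atf4* went from 332 to 38.9 and 18.2 CPM in WT cells and from 168 to 47.4 and 24.2 CPM in R255K cells. At 4 h 11.7% was left in WT (10.7 to 12.8) and 28.2% in R255K cells (26.1 to 30.5), and at 8 h 5.47% and 14.4%. *Sesn2* went from 179.7 to 19.5 and 7.53 CPM in WT and from 143 to 35.6 and 26.4 CPM in R255K cells. At 8 h 4.19% of *Sesn2* was left in WT (3.41 to 5.09) and 18.5% in R255K cells (16.7 to 20.4). Relative to summed counts both transcripts were higher in WT cells at 0 h and higher in R255K cells at 4 and 8 h. This crossing rests on the scaling. Relative to *Gapdh* the log2 ratio over 0, 4 and 8 h was 0.45, −1.11 and 1.19 for *Atf4* and 1.10, −0.52 and 2.59 for *Sesn2*, and with TMM factors *Atf4* was at −0.02 at 8 h. The share left at 4 h relative to *Gapdh* was 41.4% in WT and 14.1% in R255K cells for *Atf4*, and 38.3% and 12.5% for *Sesn2*.

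Relative to summed counts *Trib3* crossed in the same way and had the widest gap among those with counts in each library, with 932, 57 and 16 WT counts against 242, 169 and 98 with R255K. Relative to *Gapdh* its log2 ratio over 0, 4 and 8 h was −0.36, −0.13 and 2.94, so on that scale it crossed only after 4 h. At 4 h 7.11% was left in WT (5.35 to 9.30) and 58.7% in R255K cells (48.0 to 71.8), 8.26-fold more (5.92 to 11.5). At 8 h 2.17% and 33.7% were left, 15.5-fold more (8.99 to 26.9). Relative to *Gapdh* 25.1% and 29.4% were left at 4 h, and 0.725% and 7.15% at 8 h. *Chac1* had 393, 0 and 0 WT counts against 94, 16 and 5 with R255K. In WT cells the interval of the share of *Chac1* left ran from 0 to 1.10% at 4 h and to 1.19% at 8 h. With 3 counts in place of 0 the WT share would be 0.888% at 4 h and 0.963% at 8 h. In R255K cells 14.3% (7.86 to 24.5) was left at 4 h and 4.42% (1.40 to 10.7) at 8 h. If 3 counts are taken for each WT library at 0, the share left was 16.1-fold higher in R255K cells at 4 h (4.60 to 56.5) and 4.59-fold at 8 h (1.08 to 19.6). These intervals treat the 3 as if it had been counted.

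For the other 4 the estimates of what was left differed by less than 1.5-fold relative to summed counts. *Ddit4* had 58.4% and 34.3% left at 4 and 8 h in WT cells against 53.0% and 39.5% with R255K, and the interval of the ratio at 8 h ran from 0.861 to 1.54. *Ddit3* had 75.4% and 84.1% left in WT and 64.4% and 67.2% in R255K cells, with wide intervals at these counts (0.474 to 1.35 for the ratio at 8 h). *Atf5* rose relative to the library, to 128% at 8 h in WT and 123% in R255K cells, and *Asns* to 171% (165 to 177) and 145% (139.8 to 150.0). Relative to *Gapdh*, 57.0% and 30.7% of *Asns* was left at 8 h. In all, 4 of 8 had at least 1.5-fold more left in R255K cells at 4 h (31.7% of all genes) and 4 of 8 at 8 h (44.2%). None had at least 1.5-fold less left, against 6.45% of all genes at 4 h and 9.39% at 8 h. Relative to *Gapdh* these counts were 1 of 8 with more left at 4 h (0.177% of all genes) and 6 of 8 with less (97.5%), and 4 with more (26.5%) and 3 with less (37.2%) at 8 h.

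Half-lives were computed from the mean of the 0 to 4 h and 0 to 8 h decay rates and could be had in both genotypes for 6 of the 8 genes and for 5504 genes in all. *Atf4* had a half-life of 1.54 h in WT cells, which was 2.48 h (2.38 to 2.60) with R255K, and the ratio was 1.61 (1.53 to 1.70). *Sesn2* had 1.46 h and 2.48 h, a ratio of 1.70 (1.60 to 1.82). For *Trib3* the half-life was 1.22 h (1.13 to 1.32) in WT cells against 5.15 h (4.15 to 6.80) with R255K, 4.24 times as long (3.28 to 5.47). For *Chac1*, with the WT counts of 0 set to 3, it was 0.787 h (0.667 to 0.961) in WT cells against 1.58 h (1.31 to 2.00) with R255K, 2.01 times as long (1.53 to 2.65). The intervals of its WT half-life and ratio treat the 3 as if it had been counted. Fewer counts would give a shorter WT half-life and a larger ratio. The half-life of *Ddit4* was 5.17 h and 5.05 h, and its ratio of 0.977 had an interval of 0.730 to 1.31. *Ddit3* had 15.0 h in WT, with no upper limit at these counts, and 8.69 h with R255K, and its ratio of 0.578 had an interval of 0.148 to 2.26.

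A ratio above 1.5 was thus found for 4 of the 6, beside 68.8% of all genes, and a ratio below 1/1.5 for 1, beside 5.78%. The median ratio was 1.66 over the 6 and 1.98 over all genes, so the half-life ratios of the 6 were much like those of all genes. Relative to *Gapdh* the ratio was 1.51 for *Trib3* and 1.27 for *Chac1* with its WT counts set to 3, so whether *Chac1* was above 1.5 is not known, whereas *Atf4* turned to 0.779 and *Sesn2* to 0.835, and the median of all genes was 0.549.

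The order of half-lives within a genotype is not changed by a scaling factor per library, and it sets *Trib3* apart from *Atf4* and *Sesn2*. The shares below do depend on the scaling. They are taken over the genes that had a half-life in both genotypes relative to summed counts. In WT cells 2.93% of the 5504 genes had a shorter half-life than *Trib3*, and in R255K cells 32.3% had. *Atf4* kept its place, with 10.4% of genes shorter in WT and 9.52% in R255K cells, and so did *Sesn2*, with 8.07% and 9.50%. *Chac1* was near the short end in both (0.0182% and 2.00%). *Ddit4* and *Ddit3* moved toward the short end, from 64.6% to 31.4% and from 87.5% to 52.3%, the latter on few counts.

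**Figure D3:**
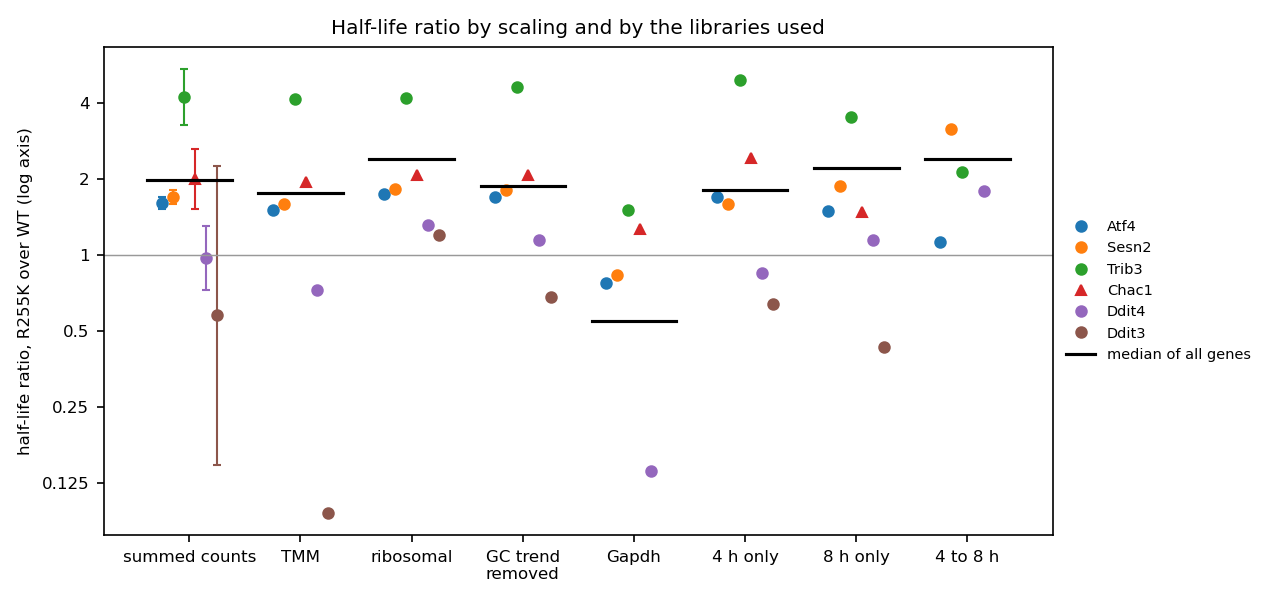
Half-life ratio, R255K over WT (log axis), of 6 genes under 5 scalings and from 3 other choices of libraries; each point is a gene, bars (first column only) are 95% counting intervals, *Chac1* is computed with WT counts set to 3 (triangle) and black lines are the median of all genes. *Trib3* stayed above the median except from 4 to 8 h, where it was 2.14 and the median 2.40, and relative to *Gapdh* *Atf4*, *Sesn2* and *Ddit4* lay below 1.

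The m6A peaks lay near the stop codon or in the 3′UTR of *Ddit3*, *Ddit4*, *Trib3*, *Chac1* and *Sesn2*, in the coding sequence of *Atf4*, and near the 5′ end of *Atf5*, *Chac1* and, in R255K cells only, *Ddit4*, *Asns* and *Sesn2*. Values are the fold enrichment and −log10 q of the authors' lists, with no replicate values. Of the 9 WT peaks, 2 had no R255K peak overlapping them, beside 47.9% of all exonic WT peaks. The first was on *Atf4* (chr15:80257143-80257372), enriched 1.66-fold at a −log10 q of 4.57, its summit 811 bases after the start codon. The second was on *Chac1* (chr2:119351270-119351492), enriched 2.75-fold at a −log10 q of 3.91, its summit 10 bases after the start codon. Both were weak beside all exonic WT peaks, whose lower quartile of −log10 q was 10.7, and no lost peak was left on the 8 genes when peaks had to reach a −log10 q of 5. Both transcripts were also lower in R255K cells at 0 h, by 1.98-fold and 3.75-fold relative to summed counts, and the part of transcript level in these calls was not tested.

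The 7 WT peaks with a partner in R255K cells kept their place. The strongest was in the 3′UTR of *Trib3* (chr2:152337450-152338621), with a fold enrichment of 11.6 in WT and 7.92 in R255K cells. That of *Chac1* (chr2:119353358-119354187), whose summit lay 39 bases past the stop codon, went from 9.89 to 5.78, and that of *Ddit4* (chr10:59950242-59951001) from 7.89 to 5.86. These are the sites printed above, with a GGAC 4 bases from the *Chac1* and 3 bases from the *Ddit4* WT summit, and 56 bases from the *Trib3* WT summit. *Sesn2* had a pair of peaks in its 3′UTR, of which the upstream went from 6.93 to 9.04 and the downstream (chr4:132492407-132493030) from 4.47 to 3.48. The peak of *Ddit3* went from 3.95 to 3.55 and that of *Atf5* from 4.31 to 4.78. The WT peak of *Ddit3* ended at chr10:127296458, past the end of the gene at 127296288. Exons of *Ddit3* overlap *Mars* on the opposite strand by 68 bases, and the part of *Mars* in this peak was not tested. In all 5 of 7 were lower in R255K cells, beside 70.6% of all 7231 exonic WT peaks with a partner, and the median ratio was 0.779 over the 7 and 0.797 over all. *Trib3*, *Chac1* and *Ddit4* were each lower in fold enrichment, while their half-life ratios were 4.24, 2.01 (with WT counts set to 3) and 0.977. *Ddit3* was lower too, with a half-life ratio of 0.578 (0.148 to 2.26). *Sesn2*, whose upstream peak was higher and downstream peak lower, had a half-life ratio of 1.70.

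**Figure D4:**
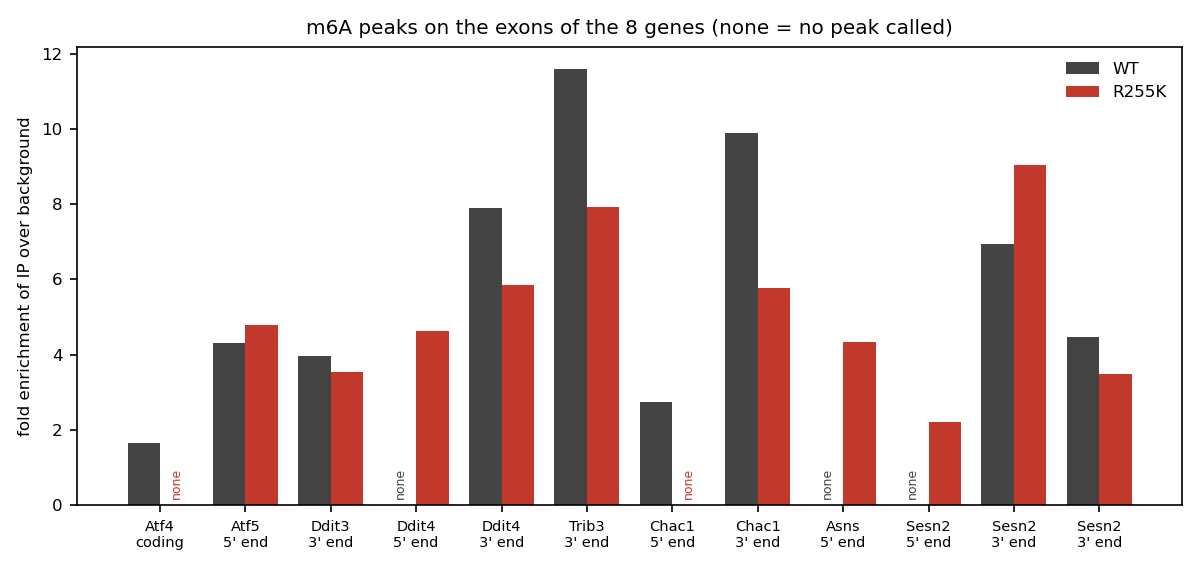
Fold enrichment of each m6A peak on the exons of the 8 genes in the WT and R255K lists, ordered by gene and by position from the 5′ end. The *Trib3*, *Chac1* and *Ddit4* 3′ peaks were lower in R255K cells, the upstream *Sesn2* 3′ peak was higher at 9.04, and "none" marks sites where a list holds no peak.

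Of the 10 R255K peaks, 3 had no WT peak overlapping them, beside 13.1% of all exonic R255K peaks. They were on *Ddit4* (chr10:59951511-59951757, fold enrichment 4.62), *Asns* (chr6:7692947-7693183, 4.34) and *Sesn2* (chr4:132510256-132510475, 2.2). All 3 summits lay between 175 and 206 bases from the 5′ end of the gene. The *Ddit4* summit was in the intron between the exons that the peak spans, the *Asns* summit in an exon outside its principal transcript, and the *Sesn2* summit in the 5′UTR. Among all exonic R255K peaks without a WT partner, 27.5% had their summit in a 5′UTR (25 to 30.1), against 7.08% of those with a partner (6.52 to 7.67). The peak list of WT cells held none on *Asns*.

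Within 100 bases of the summit, GGAC was found at 6 of the 9 WT peaks and 7 of the 10 R255K peaks, beside 79.4% and 82.9% of all exonic peaks in a gene of known strand. The 3 WT peaks without it were the lost peaks of *Atf4* and *Chac1*, where AGAC was the motif printed, and the 5′UTR peak of *Atf5*, where none of the 4 RRAC motifs was found in either genotype. The *Atf4* window also held AAAC. At the upstream *Sesn2* peak the printed GGAC was 1 base from the WT summit.

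Genes whose levels ran most like each member were named by the root mean square difference of log2 level, relative to WT 0 h, over the other 5 libraries, among 10696 genes. For *Atf4* they were *Lrig2*, *Ccnl1* and *Vegfc* (0.19 to 0.22), for *Sesn2* *Fbxo33*, *Lgr4* and *Enc1* (0.10 to 0.19), and for *Trib3* *Zfx*, *Rlf* and *Epc2* (0.20 to 0.38). *Atf5* ran closest to *Yars*, a tRNA synthetase (0.04), *Asns* to *Uqcrc2* (0.05), *Ddit4* to *Timm10* (0.15) and *Ddit3* to *Platr8* (0.17). For *Chac1* the nearest was *Dusp6* (0.91), but the genes compared needed 10 counts in each library, which *Chac1* itself did not have. Among the 8 themselves, *Atf4* and *Sesn2* were the closest pair (0.61), followed by *Atf5* and *Asns* (0.64), and *Chac1* and *Asns* the farthest (6.11).

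The rest of the pathway was read from lists chosen by role. Of the 7 eIF2α kinases, phosphatase subunits and eIF2α itself, 2 were at least 1.5-fold lower in R255K cells at 0 h (19.3% of all genes) and none higher (20.6%), shares that hold for the lists below too, with a median log2 ratio of −0.24 that was 1.20 relative to *Gapdh*. *Eif2ak2*, the kinase that senses double-stranded RNA, was lowest at −0.94 (0.49 relative to *Gapdh*), and *Eif2ak1*, the haem-regulated kinase, highest at 0.11. *Ppp1r15b*, a phosphatase subunit that reverses the response, was at −0.87 (0.57 relative to *Gapdh*) and had the lowest half-life ratio of the list, 1.29, and *Eif2ak3*, the ER kinase PERK, the highest, 2.15. Of the 3 bZIP partners of ATF4 none was lower and 1 higher. *Cebpb* was at 0.79, *Cebpg* at −0.46 (0.97 relative to *Gapdh*) and *Atf3* at −0.11 (1.32 relative to *Gapdh*), and their half-life ratios were 2.25, 2.65 and 1.37.

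The targets of ATF4 in amino acid supply were read in the same way, relative to summed counts. Of 9 genes of amino acid and one-carbon synthesis, 3 were at least 1.5-fold lower and none higher, with a median log2 ratio of −0.41 that was 1.02 relative to *Gapdh*. *Cth*, which makes cysteine from cystathionine, was lowest at −1.86, with 2606 counts in WT and 644 in R255K cells, and stayed below 0 at −0.43 relative to *Gapdh*. *Phgdh*, the entry enzyme of serine synthesis, was highest at 0.10, and *Gpt2* was the only member with a half-life in both genotypes, at a ratio of 4.74. In R255K cells *Gpt2* hardly fell, with 103% left at 8 h, so its half-life of 82.2 h there and the ratio are poorly set. Of the 8 of 9 amino acid transporters that passed the level filter, 2 were lower and none higher, with a median of −0.14 that was 1.29 relative to *Gapdh*. *Slc6a9*, the glycine transporter, was lowest at −1.83, on 107 and 27 counts and under the level filter, and *Slc7a11*, the cystine transporter, highest at 0.54. *Slc1a4* had the highest half-life ratio of these, 23.3, from 4.02 h to 93.7 h, and *Slc1a5* the lowest, 1.36. In R255K cells *Slc1a4* hardly fell (409, 483 and 443 counts, 90.1% left at 8 h). Its half-life there and the size of its ratio are therefore poorly set, and no interval was computed for them.

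Among 12 aminoacyl-tRNA synthetases 11 were below 0, 4 of them by at least 1.5-fold and none was higher, with a median log2 ratio of −0.51 that became 0.92 relative to *Gapdh*, where all 12 were higher. *Nars* was lowest at −0.83 (0.60 relative to *Gapdh*) and *Wars* highest at 0.28. None of the 12 had a half-life in both genotypes. Of the 4 of 6 stress effectors that passed the level filter, 2 were lower and none higher, with a median of −0.90 that was 0.53 relative to *Gapdh*. *Nupr1*, a stress-induced chromatin protein, was at −2.10 with 148 and 31 counts, and *Gdf15*, a secreted stress hormone, had 62 and 15 counts, a log2 ratio of −1.89 and a half-life ratio of 1.5. *Eif4ebp1*, a translation repressor, was highest at 0.32, and *Stc2* had the highest half-life ratio, 1.80. *Nupr1* and *Gdf15* stayed below 0 relative to *Gapdh*, at −0.67 and −0.46. So did *Trib3*, *Chac1*, *Cth*, *Slc6a9* and, chosen after its values were seen, *Slc7a1*, at −0.08 with 3895 WT counts against 1226 with R255K.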

How the data were processed

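For both assays the authors first took out rRNA reads (Bowtie2 2.2.6) and used HISAT2 with the mm10 genome, keeping reads with 1 placement. Picard 2.16.0 and SAMtools 0.1.09 are further tools they name. The deposited counts are whole numbers for each gene without normalization, and their counting tool and annotation are not given in the sources used here. Peaks were called by the authors with MACS2, and the deposited fold enrichment and −log10 q are those of MACS2 at the summit. How replicate libraries were joined and the depth behind the peaks are not given in the sources used here.

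CPM and FPKM were computed from the summed counts of each library, and counts under 3 were set to 3 in ratios. With 1 library per group no model was fitted, and p-values are absent. Intervals are 95% exact Poisson or binomial intervals for levels and for the ratio of a gene between 2 libraries. For a ratio of ratios (the level left, or a gene per another gene, R255K over WT) they are normal approximations on the log scale. Half-lives have delta-method intervals and shares Wilson intervals, and all cover counting error only. PCR copies cannot be told from separate molecules. A gene was called at 1.5-fold. Genes with a mean of 1 FPKM at 0 h formed the comparison, and genes without decay relative to the library had no half-life. Peaks were assigned to exons of the count table by an overlap of 1 bp and placed on GENCODE vM21 (principal CCDS transcripts of the 8 genes). No exon or peak lay past a chromosome end (0 of each).

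The 8 genes and the other lists were chosen with earlier results of these data known. The lists are those printed with their values, besides ER and mitochondrial chaperones and the mESC, fibroblast and germ layer markers. Of each list other than the markers, the text names the genes with the highest and lowest ratio at 0 h (at least 10 counts in both libraries). It also names those with the highest and lowest half-life ratio. For likeness it names the 3 nearest genes or the nearest alone, with at least 10 counts in each library. Alternatives were TMM factors, 84 ribosomal protein genes or *Gapdh* as scaling, removal of the GC trend (lowess span 0.3), a pseudocount of 1 FPKM, other level filters, other time points and stricter peaks.

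Python 3.11.15 with numpy 2.4.6, pandas 2.3.3, scipy 1.17.1, statsmodels 0.14.6, pysam 0.24.0 and matplotlib 3.10.9 was used, and edgeR 4.0.16 in R 4.3.3 for TMM factors alone.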

Additional observations from a re-analysis of the deposited data

How the results depend on the processing

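No paired analysis was possible because the actinomycin D samples have 1 library per group and the peak lists, 1 per genotype, carry no replicate numbers. The scalings of the level left and of the other lists were added after seeing the data. For want of replicates no replicate could be left out. The alternatives gave 333 values beside the reported ones. Scaling to *Gapdh* changed most. The median log2 ratio of the 8 genes at 0 h went from −0.79 to 0.64, with 0 genes lower and 4 higher by 1.5-fold, and *Atf4*, *Atf5* and *Ddit3* turned to 0.45, 0.83 and 0.39. The number of half-life ratios above 1.5 went from 4 to 1 (*Atf4* 0.779, *Sesn2* 0.835), all 8 genes were under 50% at 8 h in R255K cells, those with 1.5-fold more left in R255K cells went from 4 to 1 at 4 h and those with less from 0 to 6 at 4 h and 3 at 8 h (2 with TMM factors), and *Asns* in WT cells turned from 171% to 57.0%. Relative to *Gapdh* 11 ER chaperone genes, 7 synthesis, 6 transporter, 12 tRNA synthetase, 3 bZIP, 5 kinase or phosphatase, 6 mitochondrial and 2 effector genes were higher by 1.5-fold, and 1 effector gene and 0 of the other lists were lower. Scaling to ribosomal protein genes gave a median of −0.94, turned the half-life ratio of *Ddit3* from 0.578 to 1.20 (so that 0 were below 1/1.5), and gave 9 tRNA synthetase, 1 bZIP and 2 ER chaperone genes lower and 3 ER chaperone genes higher. Removing the GC trend gave a median of −1.09, 0 of the 8 higher, 0 half-life ratios below 1/1.5, 5 synthesis genes lower, and 3 ER chaperone, 1 transporter, 0 bZIP and 0 mitochondrial genes higher. The half-life ratio of *Ddit3* also left the count below 1/1.5 (0 genes) from 4 to 8 h and with a mean FPKM of at least 5. From 4 to 8 h the ratio was 1.13 for *Atf4* and 1.80 for *Ddit4*, and from the 8 h library alone 1.49 for *Chac1*. With peaks of at least 4-fold enrichment the lost WT peak was 1, the downstream *Sesn2* peak, and with a −log10 q of at least 5 there were 0. The least-squares slope of ln level on time equals the 8 h library alone and was not run apart. Apart from what the scalings themselves show, the cause of these changes was not tested. Counts limit *Ddit3* and *Chac1* most.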

Other observations

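The chaperones of the ER, which the ATF6 and XBP1 branches of the unfolded protein response induce, were read as a further list. Of 12 genes 6 were at least 1.5-fold higher in R255K cells at 0 h (20.6% of all genes) and 1 was lower (19.3%), with a median log2 ratio of 0.56. The number higher was 5 with TMM factors, 3 with ribosomal protein genes, 3 without the GC trend and 11 relative to *Gapdh*. *Creld2*, a secreted ER stress protein, was highest at 0.81, with 950 counts in WT and 1494 in R255K cells, and had the lowest half-life ratio of the list, 0.681. That ratio compares 98.6 h with 67.1 h and rests on little decay. At 8 h 86.7% of *Creld2* was left in WT and 94.0% in R255K cells, so the ratio sets no direction. *Herpud1*, which takes part in ER-associated degradation and is also induced by ATF4, was lowest at −0.90 (0.53 relative to *Gapdh*), with 682 and 328 counts, and had the highest half-life ratio, 2.43. *Xbp1* itself, chosen after its values were seen, had 1151, 117 and 39 WT counts against 1752, 407 and 171 with R255K.

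Of 6 mitochondrial chaperones and proteases 1 was higher by 1.5-fold at 0 h and 0 lower, with a median log2 ratio of 0.02 that was 1.45 relative to *Gapdh*. *Clpp*, a matrix protease, was highest at 0.80, and *Dnaja3*, a matrix co-chaperone, lowest at −0.19 with a half-life ratio of 1.35.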
